A study of Mus musculus with 12 samples.

Results

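The genes examined are the Eph receptors with their ephrin ligands, the slits with their Robo receptors, and the netrins with the receptors Dcc, Neo1 and Unc5a to Unc5d. They form the main families of ephrin, slit and netrin axon guidance molecules and were chosen by name, not by a measured value. The list holds 40 genes, of which 39 were matched to an Ensembl ID among the 22667 gene IDs of the deposited tables. The 39 comprise 9 EphA receptors, 5 EphB receptors, 5 ephrin-A ligands, 3 ephrin-B ligands, 3 slits, 4 Robo receptors, 4 netrins or netrin-G proteins and 6 netrin receptors. Ntn3 was not matched and is not analysed here.

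Messenger RNA of embryonic mouse brain at E18.5 was sequenced in 2 regions, cortex and hippocampus, from controls labelled wild type and from knockouts (KO) of Srrm4. Srrm4, or nSR100, is a neuronal regulator of alternative splicing. In the KO, exons 7 and 8 of a conditional EUCOMM allele were excised with Cre driven by a cytomegalovirus promoter (B6.C-Tg(CMV-cre)1Cgn/J), a promoter active in most tissues. The allele was kept on a C57Bl/6N background after aggregation of the stem cells with outbred ICR morulae. The 12 samples in the labels gave 8 libraries, 2 in each of cortex control, cortex KO, hippocampus control and hippocampus KO. The labels do not say whether the 2 libraries of a group came from separate embryos or pools. Counts of Y-linked genes, given below, differed between the 2 libraries of every group, so the 2 did not hold the same mix of sexes. P-values reflect only how far these libraries spread, part of which may be technical.

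Ephrins are membrane-bound ligands that act on Eph receptor tyrosine kinases at contacts between cells, with ephrin-A ligands held by a lipid anchor and ephrin-B ligands by a transmembrane segment that can itself signal. Slits are secreted and mostly repel axons through Robo receptors, and Slit-Robo signalling also acts on neuronal migration and progenitors in the forebrain. Netrins attract axons through Dcc and repel them through Unc5 receptors, while the netrin-G proteins are lipid-anchored relatives that act at synapses and do not bind Dcc.

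Libraries held 58210499 to 140052443 counts, and replicate 1 was the deeper library in every group. Srrm4, the targeted gene, stood at 25.2 and 24.2 RPKM (reads per gene scaled by length and library total) in cortex controls and at 8.12 and 6.97 RPKM in cortex KO. In hippocampus it stood at 26.0 and 27.9 RPKM in controls and at 5.68 and 6.16 RPKM in KO, so KO libraries were lower in both tissues. Tissue labels were checked on marker lists: 5 of 6 hippocampal genes were higher in control hippocampus (Prox1, 3.52 to 4.81 RPKM in cortex and 25.7 to 34.3 RPKM in hippocampus) and 4 of 5 neocortical genes were lower. Against their lists, Fezf2 was higher in hippocampus and Mpped1 was higher in cortex. The cortex libraries also carried striatal genes, all 7 of which were lower in hippocampus, with a summed level of 85.0 to 89.9 RPKM in cortex and 16.5 to 18.8 RPKM in hippocampus. A pair of libraries stood apart. Replicate 1 of hippocampus KO held the cortical gene Mef2c at 24.0 RPKM against 12.8 to 13.9 RPKM in the other hippocampus libraries (101.7 to 106 RPKM in cortex), and Mpped1 at 95.7 RPKM against 74.1 to 83.4 RPKM. Other neocortical and hippocampal list genes were mixed in replicate 1 of hippocampus KO. Among hippocampus libraries it held the highest Rorb, Cux2, Prox1, Zbtb20 and Lct and the lowest Lmo4, Lef1 and Grik4. Replicate 2 of hippocampus control held a summed choroid plexus level of 164 RPKM against 18.7 to 32.9 RPKM in the other hippocampus libraries, most of it Ttr (152 RPKM against 13.4 to 26.8 RPKM). Counts of Y-linked genes, as CPM (counts scaled to library total), were 144 and 148 in replicate 2 of the controls and 0.319 and 0.412 in replicate 2 of the KO, so in replicate 2 they differed with genotype, and 25.4 to 49.8 in replicate 1.

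Of the 39, 20 had a mean over the 8 libraries of at least 10 RPKM, 15 had 1 to 10 RPKM, and 4 (Epha1, Epha2, Epha10 and Robo3) had less than 1 RPKM. All 39 passed the filter on low counts and were tested. The most abundant per length were Neo1, a receptor related to Dcc, at a mean of 78.0 RPKM, the ligand Efnb3 at 76.2 RPKM, the receptor Epha4 at 73.6 RPKM and the ligand Efnb2 at 45.2 RPKM. The levels plot gives every gene in every library.

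**Figure D1:**
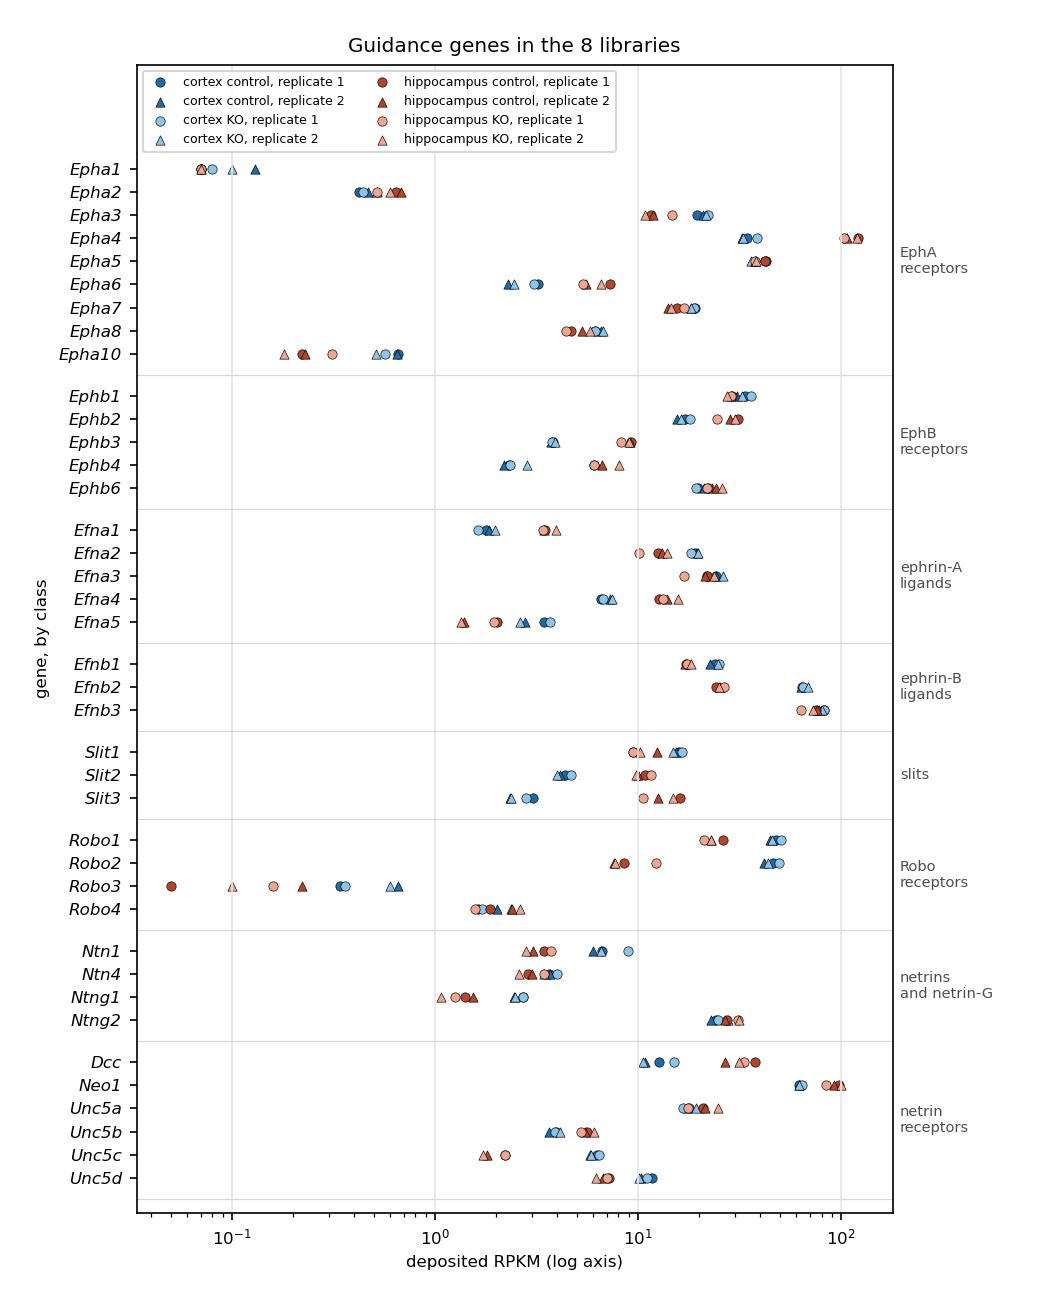
Deposited RPKM (log axis) of the 39 matched guidance genes in the 8 libraries, grouped by class; colour marks tissue and genotype, circles replicate 1 and triangles replicate 2. Tissue separates many genes (Epha4, Robo2, Slit3, Efnb2), while control and KO symbols of a tissue lie close together.

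Most of these genes differed between hippocampus and cortex, and in both genotypes. In controls, 29 of the 39 genes differed between hippocampus and cortex at an adjusted p under 0.05 in edgeR's quasi-likelihood test, 13 higher and 16 lower in hippocampus; 33.9% of all 16111 genes tested were called, 19.0% higher and 14.9% lower. In KO, 30 of 39 differed, 12 higher and 18 lower, against 40% of all genes (21.2% higher and 18.8% lower). Without hippocampus control replicate 2, the library with raised Ttr, 25 of 39 were called in controls, since Epha2, Epha7, Epha8 and Efna5 lost their calls. The same direction was called in both genotypes for 28 of the 39 genes, 12 higher and 16 lower, against 30.9% of all genes. The median absolute log2 fold change of the 39 genes was 0.79 in controls and 0.78 in KO, beside 0.25 and 0.30 over all genes tested. In RPKM, all 4 hippocampus libraries lay above all 4 cortex libraries for 12 genes and below them for 18, and 50.7% of all genes were separated in one direction or the other. In bulk tissue, fewer cells of a type and less RNA per cell cannot be told apart.

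**Figure D2:**
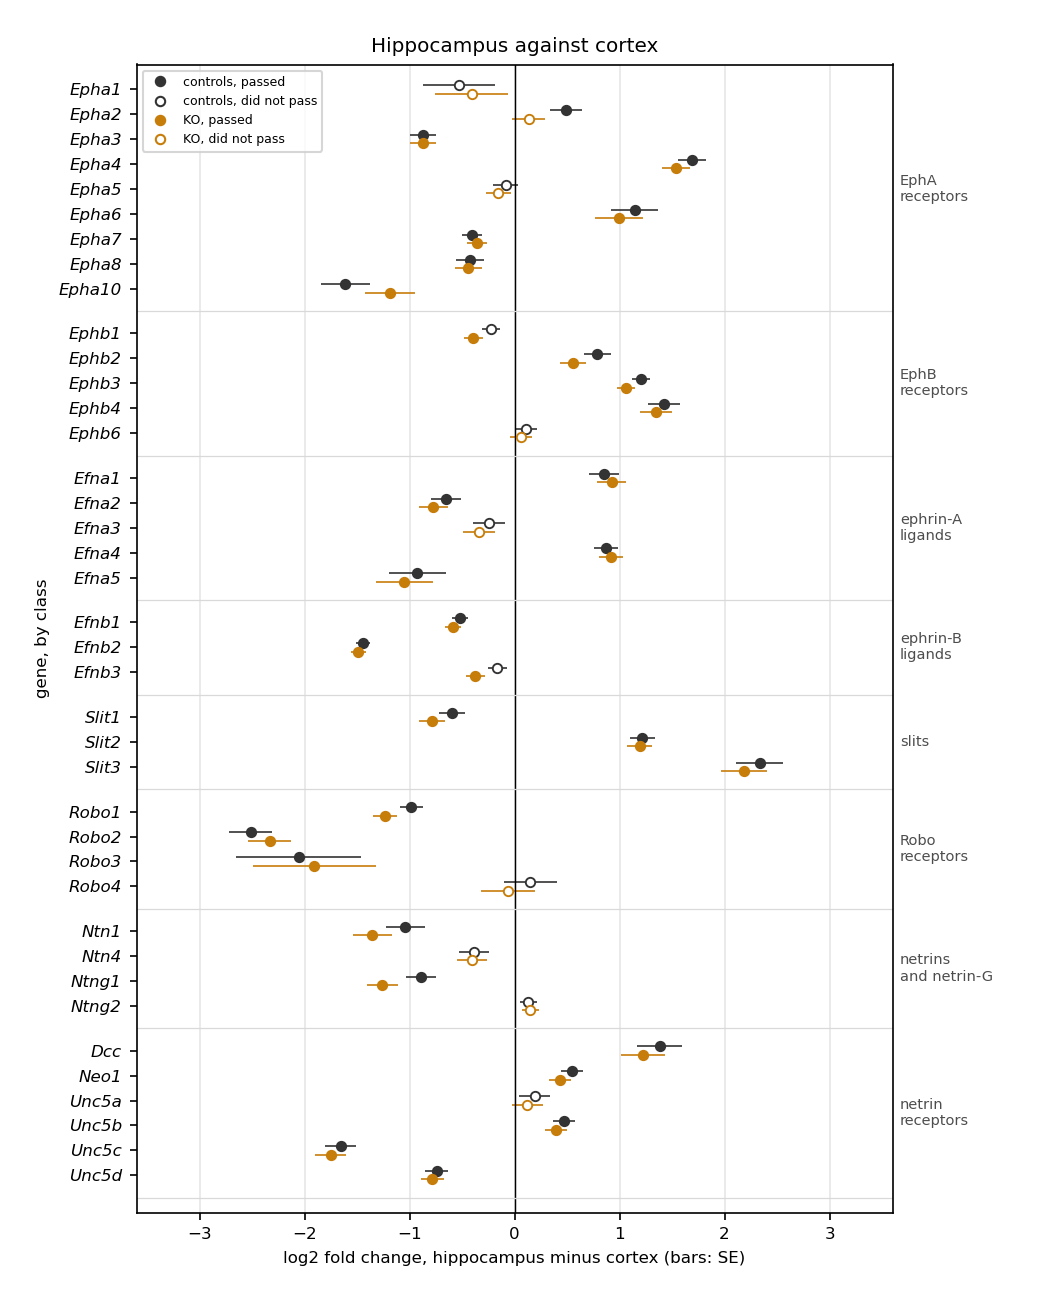
Log2 fold change of each guidance gene, hippocampus minus cortex, in controls (black) and KO (orange); bars are SE and filled points passed at an adjusted p under 0.05. Slit3, Epha4, Ephb4 and Dcc lie to the right and Robo2, Unc5c and Efnb2 to the left in both genotypes.

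Promoter windows of 4 genes are shown because they belong to the genes with the largest tissue differences, 2 in each direction, among called members with a mean of at least 1 RPKM and a single start in the RefSeq table (30 of the 40 listed genes had 1 start, and 34 had at least 1). Each is the 250 bases before the start on the gene's own strand, in GRCm38.p6, with CCAAT or TATAAA on either strand (ATTGG and TTTATA in reverse) in capitals. Slit3 lies at chr11:35121206-35121455 on the plus strand, Epha4 at chr1:77515089-77515338 on the minus strand, Unc5c at chr3:141465314-141465563 on the plus strand and Efnb2 at chr8:8661243-8661492 on the minus strand.
Slit3: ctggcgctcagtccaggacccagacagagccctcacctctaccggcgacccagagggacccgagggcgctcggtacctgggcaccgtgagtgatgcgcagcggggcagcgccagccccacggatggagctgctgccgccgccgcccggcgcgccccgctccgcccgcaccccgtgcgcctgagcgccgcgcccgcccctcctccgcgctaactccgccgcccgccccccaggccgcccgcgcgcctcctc
Epha4: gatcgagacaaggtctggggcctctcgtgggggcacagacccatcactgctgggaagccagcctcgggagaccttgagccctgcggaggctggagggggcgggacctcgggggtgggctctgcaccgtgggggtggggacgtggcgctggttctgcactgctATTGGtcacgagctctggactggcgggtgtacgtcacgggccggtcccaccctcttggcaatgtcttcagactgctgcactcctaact
Unc5c: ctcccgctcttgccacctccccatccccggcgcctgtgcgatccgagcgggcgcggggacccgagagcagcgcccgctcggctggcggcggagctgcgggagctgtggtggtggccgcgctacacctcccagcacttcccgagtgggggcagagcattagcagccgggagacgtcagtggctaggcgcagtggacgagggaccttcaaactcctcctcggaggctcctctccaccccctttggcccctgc
Efnb2: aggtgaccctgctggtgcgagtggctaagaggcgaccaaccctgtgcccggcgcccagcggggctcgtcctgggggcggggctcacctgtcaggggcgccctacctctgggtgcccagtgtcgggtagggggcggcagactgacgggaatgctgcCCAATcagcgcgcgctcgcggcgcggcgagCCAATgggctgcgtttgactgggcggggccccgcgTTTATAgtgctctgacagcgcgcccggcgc
All 4 windows were rich in CpG, with 35 in Slit3, 27 in Efnb2, 23 in Unc5c and 14 in Epha4, against a median of 6 over the 32851 windows of the table. CCAAT was present 2 times in Efnb2 and 1 time in Epha4, and in 33.8% of all windows. TATAAA was present 1 time, in Efnb2, and in 12.4% of all windows. These matches are descriptions of the letters in the windows.

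In the results that follow, values in each tissue are given in the order control replicates 1 and 2, then KO replicates 1 and 2. Fold changes are log2 values, hippocampus minus cortex, with SE and Benjamini-Hochberg adjusted p from the edgeR fit in controls unless KO is named.

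Among the ephrin-A ligands, 2 rose and 2 fell in hippocampus. Efna4 stood at 6.53, 7.23, 6.72 and 7.46 RPKM in cortex and at 12.7, 13.8, 13.2 and 15.7 RPKM in hippocampus. Every hippocampus library was above every cortex library, with a log2 fold change of 0.87 (SE 0.12, adjusted p = 0.00071). Another gene's exons cover 10.5% of the exonic bases of Efna4 on the opposite strand, and whether counting used strand is not stated here. Efna1, also known as an endothelial ligand, had 1.79, 1.84, 1.63 and 1.98 RPKM in cortex and 3.47, 3.42, 3.41 and 3.94 RPKM in hippocampus, a log2 fold change of 0.85 (SE 0.14, adjusted p = 0.0023) with no overlap. Endothelial and pericyte markers moved the same way, with 5 of 8 higher in hippocampus and a summed level of 78.2 to 81.1 RPKM in cortex and 103 to 111.9 RPKM in hippocampus; their part in the result was not tested.

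Efna2 moved the other way, from 19.0, 19.4, 18.2 and 19.8 RPKM in cortex to 12.6, 13.2, 10.1 and 13.9 RPKM in hippocampus, a log2 fold change of -0.65 (SE 0.14, adjusted p = 0.0076). Efna5, which shapes topographic maps by repelling axons that carry EphA receptors, had 3.43, 2.76, 3.68 and 2.62 RPKM in cortex and 2.01, 1.39, 1.94 and 1.34 RPKM in hippocampus. It was higher in replicate 1 than in replicate 2 in all 4 groups, with a log2 fold change of -0.93 (SE 0.27, adjusted p = 0.03). That call ended when cortex control replicate 1 (log2 fold change -0.73) or hippocampus control replicate 2 (-0.68) was left out. Efna3, the most abundant ephrin-A per length, had 24.2, 24.3, 21.8 and 26.1 RPKM in cortex and 21.8, 21.3, 16.9 and 23.7 RPKM in hippocampus, and did not pass (log2 fold change -0.24, SE 0.15). Another gene's exons cover 14.1% of the exonic bases of Efna3, also on the opposite strand. Summed over the 5 genes, ephrin-A levels overlapped between the tissues, at 52.0 to 57.98 RPKM in cortex and 45.5 to 58.6 RPKM in hippocampus.

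Ephrin-B ligands fell in hippocampus where they changed. Efnb2, which also marks arterial endothelium, stood at 63.7, 63.6, 65.0 and 68.9 RPKM in cortex and at 24.1, 25.2, 26.4 and 25.0 RPKM in hippocampus. Its 4 cortex libraries were all more than 60 RPKM and its hippocampus libraries all under 30 RPKM, and the log2 fold change of -1.44 (SE 0.07) had the smallest adjusted p of the 39 genes, 5.1e-06. Efnb1, a ligand encoded on the X chromosome, had 23.9, 22.6, 25.0 and 24.6 RPKM in cortex and 17.2, 17.0, 17.3 and 18.2 RPKM in hippocampus, a log2 fold change of -0.52 (SE 0.08, adjusted p = 0.0011). Efnb3, which acts as a midline barrier in the spinal cord, had 82.2, 78.1, 82.7 and 80.6 RPKM in cortex and 74.9, 75.8, 63.2 and 72.5 RPKM in hippocampus. Efnb3 did not pass in controls (log2 fold change -0.16, SE 0.09) and passed in KO (-0.37, SE 0.09, adjusted p = 0.012). The difference between those effects did not pass (interaction log2 -0.21, adjusted p = 1.0), and the KO call ended without cortex KO replicate 1 (largest adjusted p over all alternatives 0.0767). The share of Efnb2 in the summed ephrin-B level was 37.5% to 39.6% in cortex and 20.7% to 24.7% in hippocampus.

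EphA receptors, of which 7 of 9 changed in controls, divided by member. Epha4, which binds ephrins of both classes, stood at 34.3, 32.6, 38.5 and 32.8 RPKM in cortex and at 121, 106, 103 and 119.8 RPKM in hippocampus. Every hippocampus library held more than 100 RPKM and no cortex library reached 40 RPKM, with a log2 fold change of 1.69 (SE 0.13, adjusted p = 5.5e-05). Epha6 had 3.21, 2.28, 3.07 and 2.45 RPKM in cortex and 7.25, 5.52, 5.33 and 6.58 RPKM in hippocampus, a log2 fold change of 1.14 (SE 0.23, adjusted p = 0.0054). In KO, the Epha6 call ended without hippocampus KO replicate 2.

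Epha3, Epha7, Epha8 and Epha10 were lower in hippocampus. Epha3 had 19.6, 21.0, 22.0 and 21.5 RPKM in cortex and 11.5, 11.8, 14.7 and 10.8 RPKM in hippocampus, a log2 fold change of -0.87 (SE 0.12, adjusted p = 0.00097). Its highest hippocampus value came from KO replicate 1, the library with raised Mef2c; without it the fold change in KO went from -0.87 to -1.10. Epha8 stood at 6.13, 6.53, 6.13 and 6.74 RPKM in cortex and at 4.66, 5.29, 4.43 and 5.80 RPKM in hippocampus, a log2 fold change of -0.42 (SE 0.13, adjusted p = 0.037). The Epha8 call was the least stable of the named ones: it ended in limma on log2(RPKM + 1) (adjusted p = 0.115), in limma on log2(RPKM + 0.1) (0.106), and without cortex control replicate 1 or 2, hippocampus control replicate 1 or 2, or cortex KO replicate 1 (0.0515 to 0.171). Epha7 fell by 0.40 (SE 0.10, adjusted p = 0.014), a call that ended without cortex control replicate 1 or hippocampus control replicate 2. Epha10, at 0.18 to 0.66 RPKM, fell by 1.61 (SE 0.24, adjusted p = 0.0012). Epha2, at 0.42 to 0.68 RPKM, passed in controls (0.49, SE 0.16, adjusted p = 0.041), did not pass in KO (0.14, SE 0.16), and lost its call in DESeq2 and without either replicate of cortex control or hippocampus control or without cortex KO replicate 2. The interaction for Epha2 did not pass (log2 -0.35, adjusted p = 1.0). Epha5, at 35.9 to 42.5 RPKM in all libraries, and Epha1, at 0.07 to 0.13 RPKM, did not pass in either genotype. Epha4 made up 27.2% to 29.1% of the summed EphA level in cortex and 56.4% to 61.0% in hippocampus.

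In the EphB receptors, 3 of 5 rose in hippocampus in controls and none fell. Ephb4, also a venous endothelial receptor, had 2.31, 2.18, 2.33 and 2.85 RPKM in cortex and 6.08, 6.60, 6.08 and 8.03 RPKM in hippocampus, a log2 fold change of 1.42 (SE 0.15, adjusted p = 0.00025). Ephb3 stood at 3.82, 3.74, 3.75 and 3.91 RPKM in cortex and at 9.21, 9.16, 8.20 and 9.05 RPKM in hippocampus, a log2 fold change of 1.21 (SE 0.09, adjusted p = 3.3e-05). For both genes the lowest hippocampus library was more than 2 times the highest cortex library. Ephb2, a receptor also found at excitatory synapses, had 15.5 to 18.0 RPKM in cortex and 24.4 to 30.9 RPKM in hippocampus (log2 0.79, SE 0.13, adjusted p = 0.0019), and its KO call ended without cortex KO replicate 2. Ephb1, the most abundant EphB per length, had 33.6, 30.6, 35.8 and 32.4 RPKM in cortex and 29.0, 28.8, 28.7 and 27.4 RPKM in hippocampus. Ephb1 did not pass in controls (log2 -0.23, SE 0.09, adjusted p = 0.084) and passed in KO (-0.39, SE 0.09, adjusted p = 0.0089), a call that ended without cortex KO replicate 1; its interaction was not called. Ephb6, whose kinase domain is inactive, had 19.3 to 25.8 RPKM over all libraries and did not pass in either genotype.

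**Figure D3:**
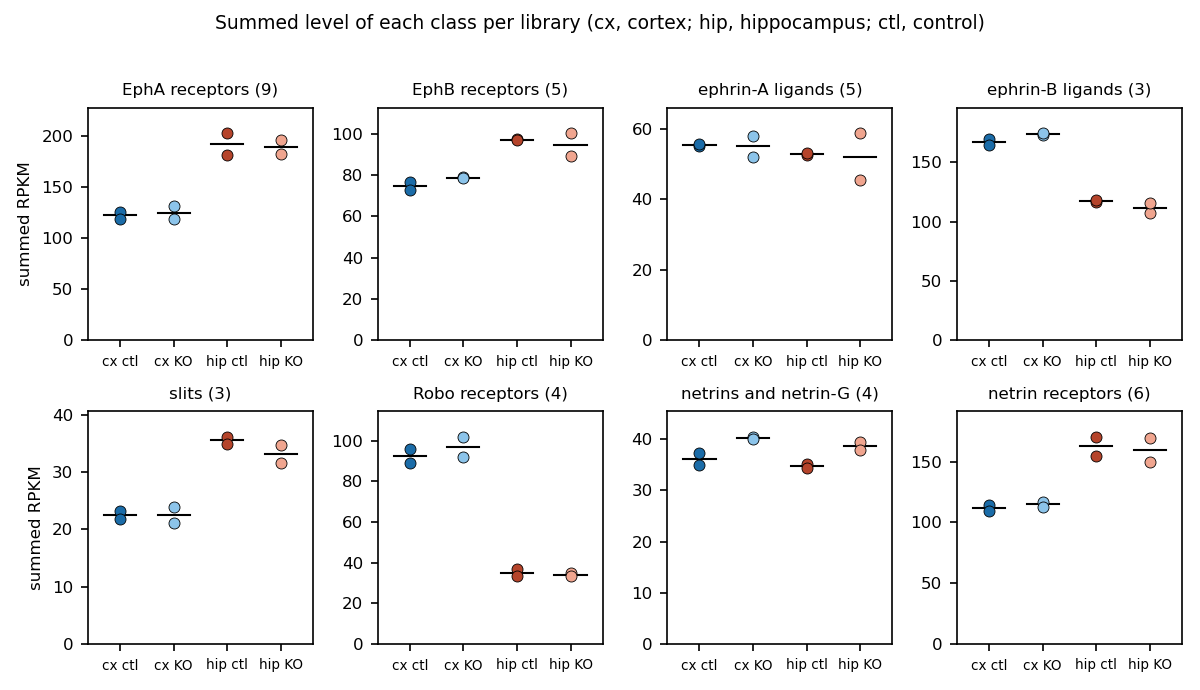
Summed RPKM of each class in each library, with the number of genes in brackets; points are libraries and lines are group means. EphA, EphB, slit and netrin receptor sums lie higher in hippocampus, ephrin-B and Robo sums lie lower, and ephrin-A and netrin sums overlap between tissues.

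Slits and Robos moved in opposite directions as classes. Slit3 had 3.03, 2.35, 2.80 and 2.36 RPKM in cortex and 16.0, 12.6, 10.6 and 14.8 RPKM in hippocampus. The groups did not overlap, and its log2 fold change of 2.33 (SE 0.22, adjusted p = 0.00014) was the largest increase of the 39 genes. Slit2 had 4.35, 4.14, 4.68 and 3.97 RPKM in cortex and 10.8, 10, 11.6 and 9.81 RPKM in hippocampus, a log2 fold change of 1.22 (SE 0.12, adjusted p = 0.00015). Slit1, the slit with the highest mean RPKM over the 8 libraries, fell from 15.8, 15.4, 16.4 and 14.8 RPKM to 9.40, 12.4, 9.38 and 10.2 RPKM, a log2 fold change of -0.60 (SE 0.12, adjusted p = 0.0061). Slit1 thus made up 68.2% to 70.4% of the summed slit level in cortex and 26.0% to 35.5% in hippocampus, whereas Slit3 made up 10.7% to 13.1% and 33.6% to 44.3%.

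Robo2 stood at 46.0, 41.7, 49.4 and 43.8 RPKM in cortex and at 8.56, 7.63, 12.2 and 7.68 RPKM in hippocampus. The log2 fold change of -2.51 (SE 0.20, adjusted p = 6.5e-05) was the largest decrease of the 39 genes. For Robo2, as for Epha3, hippocampus KO replicate 1 was the hippocampus library nearest to cortex. In RPKM the same held for Epha4, Epha6, Epha7, Epha10, Ephb2, Ephb3, Efna1, Efnb2, Slit3, Ntn1, Neo1 and Unc5b. That library was the furthest from cortex for Robo1, Slit1, Slit2, Epha8, Efna2, Efna3 and Efnb3. Without it the log2 fold change of Robo2 in KO went from -2.33 to -2.70. Robo1, the other abundant slit receptor, fell from 47.7, 44.7, 50.4 and 45.4 RPKM in cortex to 26.1, 23.0, 21.0 and 22.9 RPKM in hippocampus (log2 -0.98, SE 0.11, adjusted p = 0.00033). Robo3, which regulates commissural crossing, was low, with 176 to 234 counts in cortex libraries and 27 to 92 in hippocampus libraries. Its log2 fold change of -2.06 (SE 0.59, adjusted p = 0.029) lost its call without cortex control replicate 2 or hippocampus control replicate 1 (-1.26), and was -3.30 without hippocampus control replicate 2. Robo4, the endothelial member, had 1.58 to 2.62 RPKM over all libraries and did not pass.

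The summed slit level was 21.2 to 23.9 RPKM in cortex and 31.5 to 36.2 RPKM in hippocampus, while the summed Robo level was 89.1 to 101.8 RPKM and 33.2 to 36.6 RPKM. The ratio of slit to Robo RPKM was accordingly 0.230 to 0.246 in the 4 cortex libraries and 0.90 to 1.05 in the 4 hippocampus libraries, with 0.90 in hippocampus KO replicate 1. Robo2 made up 46.9% to 48.5% of the Robo level in cortex, 23.0% to 23.4% in 3 hippocampus libraries and 35.0% in hippocampus KO replicate 1.

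Netrins were lower in hippocampus where they changed. Ntn1, the secreted ligand of Dcc, had 6.66, 6.02, 8.92 and 6.56 RPKM in cortex and 3.45, 3.02, 3.71 and 2.81 RPKM in hippocampus, a log2 fold change of -1.04 (SE 0.19, adjusted p = 0.0032). Ntng1 fell from 2.71, 2.44, 2.70 and 2.47 RPKM to 1.40, 1.54, 1.25 and 1.07 RPKM (log2 -0.89, SE 0.14, adjusted p = 0.0019). Ntng2, the most abundant of the class per length, did not pass in either genotype, and neither did Ntn4, a ligand also deposited in basement membranes, at 2.60 to 3.98 RPKM. Ntn4 passed in KO without hippocampus KO replicate 1 (log2 -0.62, adjusted p = 0.016).

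Among the netrin receptors, 3 rose and 2 fell. Dcc, the attractive receptor, had 12.7, 10.8, 15.04 and 10.6 RPKM in cortex and 37.4, 26.9, 33.3 and 31.4 RPKM in hippocampus, a log2 fold change of 1.38 (SE 0.21, adjusted p = 0.0015). Neo1, which also binds repulsive guidance molecules, had 62.0, 61.6, 64.1 and 62.3 RPKM in cortex and 97.1, 92.6, 84.6 and 99.5 RPKM in hippocampus, a log2 fold change of 0.55 (SE 0.10, adjusted p = 0.0044). Both genes were higher in every hippocampus library than in any cortex library, and the Neo1 call in KO ended without cortex KO replicate 2.

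The Unc5 receptors did not move as one. Unc5c fell from 6.28, 5.79, 6.41 and 5.89 RPKM to 2.21, 1.81, 2.21 and 1.72 RPKM (log2 -1.65, SE 0.15, adjusted p = 0.00011). Unc5d fell from 11.7, 10.3, 11.1 and 10.04 RPKM to 7.16, 6.68, 7.02 and 6.20 RPKM (log2 -0.74, SE 0.11, adjusted p = 0.0012). Unc5b, which also acts in vessels, rose by 0.47 (SE 0.10, adjusted p = 0.0082), from 3.64 to 4.10 RPKM in cortex to 5.25 to 6.09 RPKM in hippocampus, a call that ended without cortex control replicate 2 or hippocampus control replicate 1. Unc5a, at 16.7 to 24.6 RPKM, did not pass in either genotype with all libraries, and passed in KO without hippocampus KO replicate 1 (log2 0.36, adjusted p = 0.027). Without that library 30 of the 39 genes were still called in KO, since Ntn4 and Unc5a were gained and Epha8 (log2 -0.24) and Robo3 (-2.33) were lost. Other calls in KO also ended with 1 library left out. For Epha7 and Efna5 this was cortex KO replicate 1 or hippocampus KO replicate 2. For Unc5b it was either cortex KO replicate or hippocampus KO replicate 2. For Robo3 it was cortex KO replicate 2 or hippocampus KO replicate 2. For Epha8 it was either replicate of cortex control or cortex KO. The Epha7 and Epha8 calls in KO also ended in both limma settings. That of Epha8 ended as well in a fit of only the cortex KO and hippocampus KO libraries.

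Cell type markers differed between the tissues beside these genes. All 9 GABAergic interneuron genes were lower in hippocampus, at a summed 511.6 to 549.8 RPKM in cortex and 147.6 to 203.9 RPKM in hippocampus. Within hippocampus the sum was 184 and 203.9 RPKM in controls and 147.6 and 165 RPKM in KO. Higher in hippocampus were 5 of 6 radial glia genes (191.6 to 209.8 against 500.8 to 593.2 RPKM), 5 of 5 intermediate progenitor genes (54.5 to 66.9 against 144 to 174 RPKM), 5 of 5 Cajal-Retzius genes (61.4 to 76.6 against 196.5 to 240.2 RPKM) and 5 of 6 meningeal genes (3.68 to 4.85 against 12.7 to 26.1 RPKM). Choroid plexus genes were called higher for 5 of 6 in controls and 2 of 6 in KO, at a summed 1.69 to 7.85 RPKM in cortex, 18.7 to 32.9 RPKM in 3 hippocampus libraries and 164 RPKM in hippocampus control replicate 2. Without that library the log2 fold changes in controls were 2.52 for Slit3, 1.81 for Epha4, -2.41 for Robo2 and -1.45 for Efnb2. In controls, 5 of 7 microglial genes were higher (25.0 to 30.2 against 45.6 to 59.7 RPKM), as were 3 of 5 astrocyte genes, with 1 lower (82.5 to 93.6 against 168 to 208 RPKM). Of 4 septal genes 2 were higher and 1 lower, and of 5 thalamic genes 1 was higher and 2 lower. Oligodendrocyte lineage genes were lower for 4 of 5 (53.8 to 62.7 against 32.4 to 43.1 RPKM), and pan-neuronal genes for 3 of 6 in controls and 5 of 6 in KO (2625 to 2865 against 2096 to 2328 RPKM). None of 6 red blood cell genes was called. No defining gene of these lists stood at 0 in all libraries. The part of cell composition in the tissue differences of Slit3, Epha4, Robo2, Efnb2 and the other genes was not tested.

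**Figure D4:**
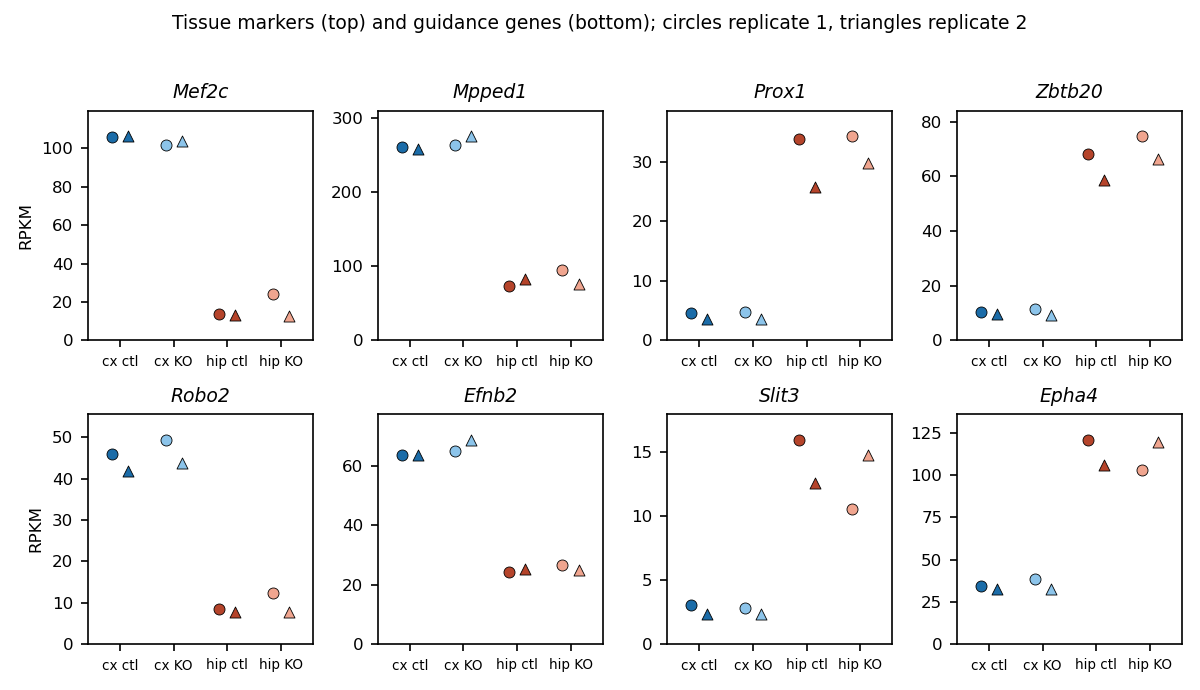
RPKM of the tissue markers Mef2c, Mpped1, Prox1 and Zbtb20 (top) and of Robo2, Efnb2, Slit3 and Epha4 (bottom) in each library; circles are replicate 1 and triangles replicate 2. In hippocampus KO replicate 1, Mef2c (24.0 RPKM), Mpped1 (95.7 RPKM), Prox1 (34.3 RPKM), Zbtb20 (74.7 RPKM), Robo2 (12.2 RPKM) and Efnb2 (26.4 RPKM) are the highest hippocampus values. Slit3 (10.6 RPKM) and Epha4 (103 RPKM) are the lowest there.

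Genes that act with these families were read from lists of 59 partners, all of which were tested. In controls, 30 of the 59 were called, 6 higher and 24 lower in hippocampus, beside 33.9% of all genes (19.0% higher and 14.9% lower). In KO 30 were called, 4 higher and 26 lower, beside 40% of all genes. Of 23 Eph and ephrin partners, 2 were higher and 6 lower in controls, a share near the 33.9% of all genes. Ngef, the exchange factor ephexin that couples EphA receptors to the actin cytoskeleton, stood at 20.4, 19.4, 21.5 and 21.6 RPKM in cortex and at 3.65, 4.21, 3.08 and 3.10 RPKM in hippocampus (log2 -2.42, SE 0.09, adjusted p = 2.3e-06). Vav3 and Tiam1, exchange factors for Rac, fell by 1.20 (SE 0.12, adjusted p = 0.00018) and 0.59 (SE 0.09, adjusted p = 0.0014). Sdcbp, or syntenin, which binds the ephrin-B tail, rose by 0.59 (SE 0.08, adjusted p = 0.00071), and Sipa1l1 rose by 0.33 (SE 0.11, adjusted p = 0.043).

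Of 16 Slit and Robo partners, 1 was higher and 6 lower in controls, where 19.0% of all genes were higher and 14.9% lower. Enah, an actin regulator bound by Robo, rose by 0.32 (SE 0.09, adjusted p = 0.025), while its relative Evl fell by 0.50 (SE 0.09, adjusted p = 0.0039). Srgap1, which acts downstream of Robo, fell by 0.81 (SE 0.12, adjusted p = 0.0012), and the kinase Pak1 fell by 0.67 (SE 0.07, adjusted p = 0.00018).

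Of 20 netrin partners and related ligands, 3 were higher and 12 lower in controls, against the same shares of all genes (19.0% and 14.9%). Draxin, a secreted ligand of Dcc, had 42.3, 39.8, 44.8 and 44.5 RPKM in cortex and 98.0, 94.0, 93.0 and 107 RPKM in hippocampus (log2 1.15, SE 0.10, adjusted p = 8.3e-05). Flrt1 rose by 2.05 (SE 0.23, adjusted p = 0.00034) and the Rac activator Dock1 by 0.84 (SE 0.14, adjusted p = 0.0019). Lower were Cbln4, at 3.58 to 3.85 RPKM in cortex and 1.15 to 1.80 RPKM in hippocampus (log2 -1.12, SE 0.16, adjusted p = 0.0009), Trim67 (log2 -0.93, SE 0.11, adjusted p = 0.00048), and the netrin-G1 ligand Lrrc4c (log2 -0.92, SE 0.11, adjusted p = 0.00042).

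The KO was compared with controls to ask whether loss of Srrm4 altered the level of these genes, which is separate from altered splicing of their transcripts, since the tables hold 1 value per gene. None of the 39 genes passed in cortex (0.0186% of all genes called), in hippocampus (0.0248%) or in the fit over both tissues (0.0621%), and none had a KO effect that differed between tissues (0.0%). At an unadjusted p under 0.05 the edgeR test gave 0 of 39 in cortex (1.14% of all genes), 1 in hippocampus (3.81%), 1 over both tissues (4.43%) and 0 for the interaction (0.981%), and DESeq2 gave 0, 0, 1 and 0. These unadjusted counts changed with the setting and with the libraries used. With the replicate number as a block, edgeR gave 1 member in cortex (2.15% of all genes) and 2 in hippocampus (7.81%). Over both tissues and for the interaction the block gave 1 each (8.06% and 1.88%). The cortex count also changed without cortex KO replicate 2. Among single libraries, the largest change came when hippocampus KO replicate 2 was left out. Without replicate 2, the library with raised Mef2c, replicate 1, stood alone for hippocampus KO. More members and a larger share of all genes then had such a p in hippocampus, over both tissues and for the interaction. Without replicate 1 instead, slightly more members had such a p in hippocampus, over both tissues and for the interaction. The share of all genes then fell in hippocampus and rose over both tissues and for the interaction. With 1 library left in hippocampus KO, no conclusion about the members is drawn from these counts. The member count in cortex did not change in either case, and no member was called after adjustment. Median absolute log2 changes of the 39 genes were 0.06 in cortex and 0.10 in hippocampus, beside 0.06 and 0.09 over all genes tested.

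**Figure D5:**
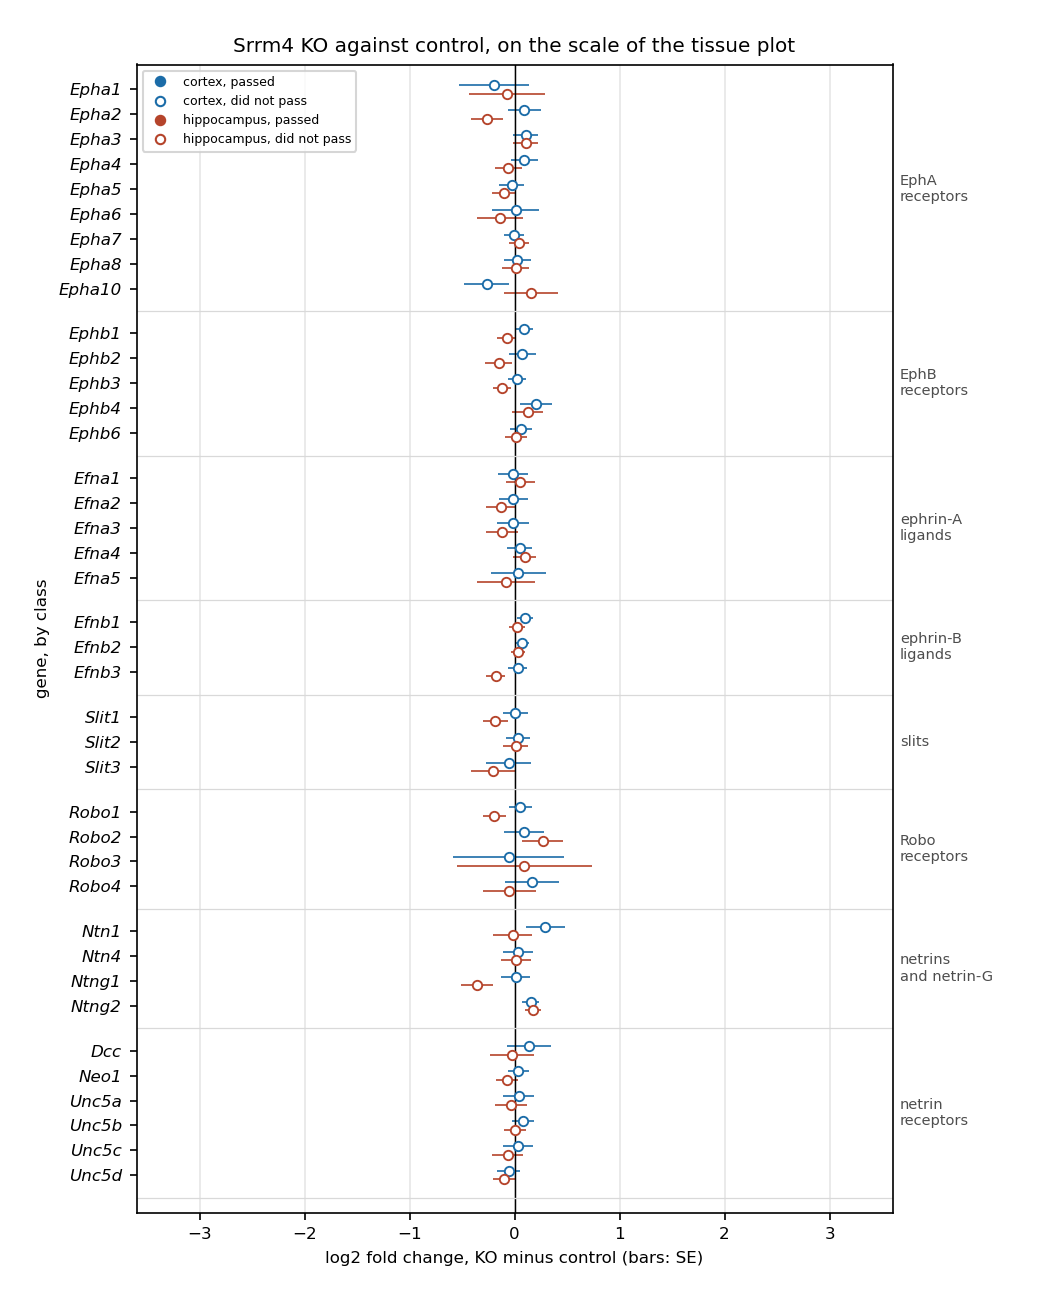
Log2 fold change of each guidance gene, KO minus control, in cortex (blue) and hippocampus (red), with SE bars and the axis of the tissue plot; open points did not pass. All 39 genes in both tissues lie between -0.36 and 0.30, and no point is filled.

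Ntng2, a netrin-G protein that binds Lrrc4, had the smallest p over both tissues. It stood at 24.3 and 22.9 RPKM in cortex controls and 24.9 and 27.6 RPKM in cortex KO, and at 27.4 and 26.9 RPKM in hippocampus controls and 31.1 and 31.5 RPKM in hippocampus KO. The KO libraries were above the controls in each tissue, with a log2 difference of 0.17 (SE 0.05, unadjusted p = 0.00997, adjusted p = 1.0). A neighbouring gene on the same strand shares 14.0% of the exonic bases of Ntng2. Efnb1 was the other gene with both KO libraries above both controls in each tissue, at a log2 difference of 0.06 (SE 0.05), and no gene had both KO libraries below in each tissue; 5.69% of all genes were separated in one direction in both tissues.

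Ntng1 had the smallest p in hippocampus, with 1.40 and 1.54 RPKM in controls and 1.25 and 1.07 RPKM in KO (log2 -0.36, SE 0.15, unadjusted p = 0.0429, adjusted p = 0.99). In cortex the same gene had 2.71 and 2.44 RPKM in controls and 2.70 and 2.47 RPKM in KO, and the difference between tissues did not pass (log2 -0.37, SE 0.20, adjusted p = 1.0). Leaving out hippocampus KO replicate 1 gave -0.47 for Ntng1 in hippocampus (adjusted p = 0.96). Efnb3 in hippocampus differed by -0.18 (SE 0.09, adjusted p = 0.99), and by -0.08 without that library. In cortex, Ntn1 differed by 0.30 (SE 0.18) and Ephb4 by 0.20 (SE 0.15), both with an adjusted p of 1.0; the higher Ntn1 value came from 1 library, replicate 1 of the KO at 8.92 RPKM. Over both tissues Ephb4 differed by 0.16 (SE 0.10, adjusted p = 1.0), and by 0.25 without hippocampus KO replicate 1 (adjusted p = 0.95). Within each KO comparison, the genes other than the 3 with the smallest p lay closer to 0 relative to their errors. In hippocampus, the next were Robo1 (log2 -0.19, SE 0.11) and Epha2 (-0.26, SE 0.15).

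The intervals give, gene by gene and without adjustment over all genes tested, a range for the KO change from the spread of these libraries. Changes beyond them could still go uncalled after adjustment, and the intervals are too narrow if that spread is technical. Over both tissues, the 95% interval of the KO difference lay within 1 log2 unit for all 39 genes and within 0.5 for 37. In cortex alone and in hippocampus alone it lay within 1 unit for 38 genes and within 0.5 for 28. The exception at 1 unit was Robo3, whose interval ran from -1.27 to 1.16 in cortex and from -1.39 to 1.58 in hippocampus. For Slit3 it ran from -0.46 to 0.19 over both tissues, for Epha4 from -0.18 to 0.22, for Efnb2 from -0.04 to 0.15, and for Dcc from -0.26 to 0.37. For Robo2 it ran from -0.12 to 0.48, but its estimate of 0.18 (SE 0.13) was 0.02 (SE 0.09) without hippocampus KO replicate 1. Of the 59 partners, none passed in any KO comparison or in the interaction in edgeR or DESeq2. In edgeR, 0 in cortex, 3 in hippocampus, 0 over both tissues and 1 for the interaction had an unadjusted p under 0.05, and DESeq2 gave the same 4 counts. Y-linked counts differed with genotype in replicate 2, and their part in the KO values was not tested.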

How the data were processed

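Gene tables from 8 libraries were read. Per the labels' protocols, Tri Reagent served for RNA purification and the TruSeq kit for the libraries. The submitters' processing notes name Bowtie and mm9. How reads were counted, and with which annotation and strand setting, is not given in these sources. The deposited count column was read as reads per gene, and the deposited RPKM column as the authors' count scaled by gene length and library total; over 10043 genes, the length that links the count to the RPKM varied across tables by a factor of 1.0 after rounding. RPKM cells with the text "ne" (1114 per table) were treated as missing, and blank counts as 0. Replicate 1 of each group holds runs 1 and 2 in 1 table and was used as 1 library. Of the gene IDs, 20759 received a symbol from GENCODE M21.

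Counts were tested with edgeR 4.0.16 (quasi-likelihood, TMM, filterByExpr with minimum count 10, R 4.3.3), in 1 fit over all 8 libraries with 4 group means (additive in tissue and genotype for the KO effect over both tissues), two-sided, adjusted by Benjamini-Hochberg over 16111 genes. SE is the log2 fold change divided by the root of F. Alternatives used DESeq2 1.42.0, limma 3.58.1 on log2(RPKM + 1) and log2(RPKM + 0.1), other scalings and filters, a replicate block and each library left out. The script was tested on simulated data. The members and lists were chosen with earlier results of these data known. Values in every library are given for the most abundant member of each class, up to 2 members in each direction with the largest called tissue difference in controls (at least 1 RPKM, no overlap), and the 3 smallest p in each KO comparison. Up to 3 partners per list and direction are named by the same conditions, and other members are given by range. The fold changes given for Ephb2, Epha2, Epha7, Epha10, Robo3 and Unc5b fall outside that rule and were chosen after their values were seen. Promoter sequences are from RefSeq (GRCm38.p6). Some marker genes are not reported here.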

Additional observations from a re-analysis of the deposited data

How the results depend on the processing

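The number of guidance genes that differed between hippocampus and cortex ranged from 25 to 32 of 39 in controls (29 as reported) and from 24 to 31 in KO (30 as reported) over the alternatives, and no KO effect or interaction passed in any of them. Leaving out each library in turn gave 25 to 30 in controls and 24 to 30 in KO, where a group with 1 library left is assumed to vary like the others. Of the genes called, 23 of 29 in controls and 20 of 30 in KO kept their call in every alternative run. Over the members called, 21 of 461 values under alternatives lost the threshold in controls (6 members) and 25 of 478 in KO (10 members), named in the report. With the replicate number as a block (replicate block), 31 members were called in controls and 31 in KO, and 0 for each KO effect; the deviations of same-numbered libraries correlated at 0.096 to 0.38, and with only 2 numbers this does not show pairing. Over all genes, KO calls rose from 3, 4 and 10 (cortex, hippocampus, both) to 11, 18 and 37 in DESeq2, the replicate block gave 4, 6 and 22, and limma on log2(RPKM + 1) gave 2, 2 and 9. The number of all genes called between tissues in controls went from 5464 to 3231 without cortex control replicate 1, and in KO from 6442 to 4156 without cortex KO replicate 1. On log2(RPKM + 1), limma gave smaller tissue differences for low genes, such as -0.40 for Robo3 and -0.43 for Epha10 in controls. Depth limits Epha1, Epha10 and Robo3, with 13 to 34, 26 to 213 and 27 to 234 counts per library.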
